A study of Mus musculus with 4 samples.

Results

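Cyclins are the regulatory subunits that switch on cyclin-dependent kinases, and this account covers 10 transcripts of that system: the D-type cyclin genes Ccnd1, Ccnd2 and Ccnd3, the E-type genes Ccne1 and Ccne2, the A-type gene Ccna2, the B-type genes Ccnb1 and Ccnb2, and the G1 kinase genes Cdk4 and Cdk6. They were taken by gene symbol from a table of 19171 genes, in which each of the 10 had a single row, and all 10 were among the 12046 genes that were tested. RNA came from primary cells released by collagenase from the calvaria (the skull vault) of C57BL/6 mice at postnatal day 10, and was collected 3 days after adenovirus infection. In the Cre group (2 libraries) the virus carried Cre recombinase, which removes DNA between loxP sites, and in the YFP group (2 libraries) it carried a yellow fluorescent protein. Both groups had the genotype mir17fl/fl:106b-/-, so the miR-106b-25 cluster was absent from both, and the floxed miR-17-92 alleles were the target of Cre. The virus dose was set to infect more than 80% of cells. The insert of the virus differs between the groups together with the intended deletion, and Cre in cells without floxed alleles was not analysed here.

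D-type cyclins pair with CDK4 and CDK6 in G1, where they respond to growth factors and start the phosphorylation of the retinoblastoma protein. Cyclin E then acts with CDK2 at the entry into S phase, cyclin A with CDK2 and CDK1 through S phase and G2, and cyclin B with CDK1 in mitosis. Transcripts of the E, A and B types rise and fall with the cycle, whereas those of the D type follow mitogens more than cycle position, and miRNAs of the miR-17 family are known in human and mouse cells as regulators of G1 progression.

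With Cre, the D-type cyclin Ccnd1 was the only member that rose, to 1.30 times its mean FPKM with YFP. The A-type cyclin Ccna2 and the B-type cyclins Ccnb1 and Ccnb2 fell to between 0.657 and 0.672 of their mean FPKM with YFP, and Ccne2 and Cdk4 fell to 0.739 and 0.789. Ccnd2, Ccnd3, Ccne1 and Cdk6 did not pass the test. Thus 6 of 10 members were called (1 higher and 5 lower), where 32.9% of all tested genes were called, 16.6% higher and 16.3% lower. A call means an adjusted p under 0.05 in limma, a linear model fitted to log2(FPKM + 1) over all tested genes, two-sided, with Benjamini-Hochberg adjustment over all of them. FPKM divides the fragments of a gene by its transcript length and by the library's mapped total, so levels can be set side by side between genes. The groups did not overlap in 8 of 10 members (2 higher and 6 lower), but the same held in 66.9% of tested genes (31.5% higher and 35.4% lower). The median log2 change was -0.22 over the members and -0.01 over all tested genes.

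**Figure D1:**
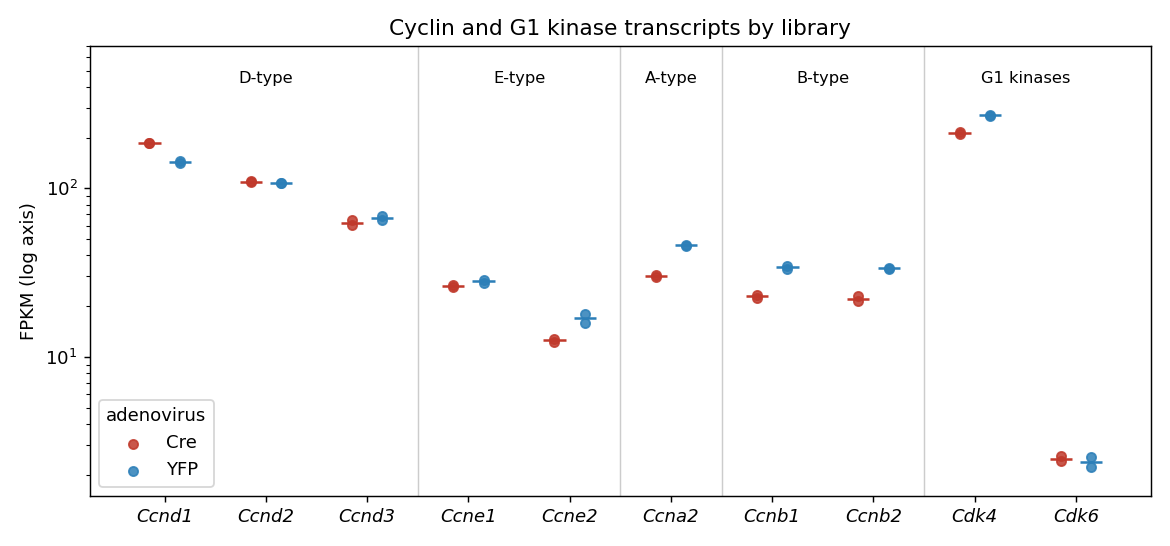
FPKM on a log axis for the 10 transcripts in 2 Cre and 2 YFP libraries. Points are libraries and bars are group means. Ccnd1 lies higher with Cre (185 and 186 FPKM) than with YFP (141 and 145 FPKM), while Ccna2, Ccnb1, Ccnb2, Ccne2 and Cdk4 lie lower with Cre.

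Among the D-type cyclins, Ccnd1 (Entrez 12443), the cyclin most closely tied to growth factor and adhesion signals, had 185.1 and 186.4 FPKM in the Cre libraries, against 141.4 and 145.5 FPKM in the YFP libraries. Both Cre libraries lay above both YFP libraries, and the difference was several times the spread within either group. Ccnd1 averaged 185.8 ± 0.9 FPKM with Cre and 143.4 ± 2.9 FPKM with YFP (SD, n = 2 each), and rose with a log2 change of 0.37 (SE 0.04; adjusted p = 0.000124, limma). A higher log2 change was seen in 6.71% of tested genes.

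Ccnd2 (Entrez 12444), which partners the same kinases, had 110.9 and 108.4 FPKM with Cre, against 107.1 and 108.3 FPKM with YFP. The Cre values lay above the YFP values only narrowly, with 108.38 FPKM the lower Cre value and 108.29 FPKM the higher YFP value. Its log2 change of 0.03 had a 95% interval of -0.07 to 0.12 (limma adjusted p = 0.692). That interval lies below the log2 change of Ccnd1, although the difference between these genes was not tested.

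Ccnd3 (Entrez 12445) had 60.8 and 64.5 FPKM with Cre, against 68.4 and 64.5 FPKM with YFP, so that the groups met at 64.5. Its log2 change was -0.08 (95% interval -0.19 to 0.03, limma adjusted p = 0.232). With a trend of each library's values with transcript GC content and length removed, it was lower with Cre (log2 change -0.15, adjusted p = 0.0229). The summed FPKM of the D-type cyclins was 356.8 and 359.3 in the Cre libraries and 316.8 and 318.2 in the YFP libraries, and Ccnd1 was the D-type cyclin that passed the test.

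**Figure D2:**
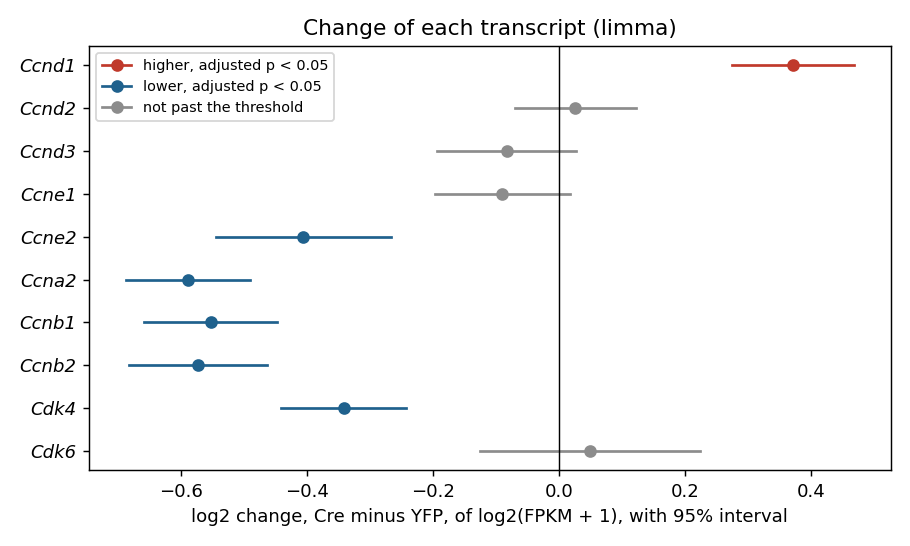
Log2 change of each transcript (Cre minus YFP) with its 95% interval from limma, coloured by whether it passed the threshold. Ccna2, Ccnb1 and Ccnb2 lie together between -0.55 and -0.59, Ccne2 and Cdk4 at -0.41 and -0.34, and Ccnd1 alone is higher, at 0.37.

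Of the E-type cyclins, Ccne2 passed the test and Ccne1 did not. Ccne1 (Entrez 12447), an activator of CDK2, had 25.8 and 26.6 FPKM with Cre, against 27.4 and 28.6 FPKM with YFP. The values with Cre lay just under those with YFP, and the log2 change was -0.09 (95% interval -0.20 to 0.02, limma adjusted p = 0.182). With the GC content and length trend removed, the log2 change was -0.15 and passed (adjusted p = 0.0266).

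Ccne2 (Entrez 12448), the other activator of CDK2 in this class, had 12.7 and 12.3 FPKM with Cre, against 15.9 and 17.95 FPKM with YFP. The YFP libraries were spread more widely than the Cre libraries and lay wholly above them. Ccne2 fell, with a log2 change of -0.41 (SE 0.06; adjusted p = 0.00067, limma). The ratio of Ccne1 to Ccne2 was 2.03 and 2.16 in the Cre libraries and 1.719 and 1.596 in the YFP libraries, a difference between the E-type transcripts that was not tested.

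Ccna2 (Entrez 12428), the cyclin of S phase and G2, had 29.9 and 30.5 FPKM with Cre, against 45.7 and 46.1 FPKM with YFP. The groups lay far apart against the spread within each. Its mean FPKM with Cre was 0.657 of that with YFP, its log2 change was -0.59 (SE 0.04; adjusted p = 6.80e-06, limma), and 0.731% of tested genes had a lower log2 change.

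The B-type cyclins, which activate CDK1 for entry into mitosis, fell by nearly the same amount. Ccnb1 (Entrez 268697) had 22.5 and 23.2 FPKM with Cre, against 34.6 and 33.3 FPKM with YFP. Ccnb2 (Entrez 12442) had 21.5 and 22.9 FPKM with Cre, against 33.1 and 33.8 FPKM with YFP. In each gene, both Cre libraries lay well below both YFP libraries, with no overlap. The log2 change was -0.55 for Ccnb1 (SE 0.05; adjusted p = 1.65e-05, limma) and -0.57 for Ccnb2 (SE 0.05; adjusted p = 1.62e-05, limma).

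The proportions among the A- and B-type transcripts were close in both groups. The ratio of Ccnb1 to Ccnb2 was 1.05 and 1.02 in the Cre libraries and 1.05 and 0.986 in the YFP libraries. The ratio of Ccna2 to the sum of Ccnb1 and Ccnb2 was 0.679 and 0.662 with Cre and 0.674 and 0.686 with YFP. Both ratios overlapped between the groups.

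Promoter sequence is shown for the B-type cyclins because these members fell together and because CCAAT boxes and the cell cycle homology region (CHR, TTTGAA) are known elements of genes that peak in G2 and mitosis. RefSeq windows of 300 bases on GRCm38.p6, 250 before and 50 after the annotated start, were matched for 6 of 10 members (Ccnb1, Ccnb2, Ccnd3, Ccne1, Cdk4 and Cdk6). Capitals mark CCAAT boxes, the CHR letters and the core of an E2F site (TTCCCGC or TTGGCGC or TTGCCGC or TTCGCGC), each searched on both strands. The Ccnb1 window is chr13:100786437-100786736 and the Ccnb2 window is chr9:70421505-70421804, both on the minus strand and printed 5′ to 3′ along the gene.
Ccnb1: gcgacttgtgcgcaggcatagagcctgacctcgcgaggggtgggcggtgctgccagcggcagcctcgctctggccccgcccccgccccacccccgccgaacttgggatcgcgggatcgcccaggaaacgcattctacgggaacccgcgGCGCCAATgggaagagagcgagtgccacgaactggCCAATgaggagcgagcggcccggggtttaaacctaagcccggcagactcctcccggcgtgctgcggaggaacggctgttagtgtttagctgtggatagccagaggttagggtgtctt
Ccnb2: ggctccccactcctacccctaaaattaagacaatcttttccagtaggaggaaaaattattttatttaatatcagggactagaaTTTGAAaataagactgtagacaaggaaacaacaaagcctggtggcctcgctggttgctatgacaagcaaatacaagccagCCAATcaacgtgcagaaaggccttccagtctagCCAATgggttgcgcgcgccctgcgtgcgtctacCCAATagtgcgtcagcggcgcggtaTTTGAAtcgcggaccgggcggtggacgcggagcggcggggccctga
The Ccnb2 window held 3 CCAAT boxes, whose first bases lay 87, 54 and 21 bases before the start, and 2 copies of TTTGAA. The Ccnb1 window held 2 CCAAT boxes, 99 and 67 bases before the start, no TTTGAA, and 1 E2F core match on the other strand that overlapped a CCAAT box. Neither Ccne1, Cdk4 nor Cdk6 had a match to any of these letters. Ccnd3 has a pair of windows in the table, of which 1 held a single CCAAT box. At least 1 CCAAT was present in 37.4% of all 32851 promoter windows, 2 or more in 11.7%, TTTGAA in 17.9% and an E2F core in 9.57%. Only the letters TTTGAA were searched for the CHR, and variants of them were not. A match describes letters and not binding.

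The G1 kinases stood at opposite ends of the range of levels. Cdk4 (Entrez 12567), a kinase partner of the D-type cyclins, was the most abundant member, with 217.0 and 210.6 FPKM with Cre, against 272.9 and 269.3 FPKM with YFP. Both Cre libraries lay below both YFP libraries by far more than the spread within either group. Cdk4 fell, with a log2 change of -0.34 (SE 0.04; adjusted p = 0.000243, limma), the opposite direction to its partner transcript Ccnd1.

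Cdk6 (Entrez 12571), the related kinase, was the least abundant member, with 2.58 and 2.40 FPKM with Cre, against 2.53 and 2.22 FPKM with YFP. The groups overlapped, and the log2 change of 0.05 had a 95% interval of -0.13 to 0.22 (limma adjusted p = 0.676). The Cdk4 transcript was 84.1 and 87.7 times as abundant as Cdk6 in the Cre libraries and 107.9 and 121.3 times in the YFP libraries.

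Sums and ratios over the classes show the shift within each library; they were formed from chosen members and carry no test. The 8 cyclin transcripts together came to 469.2 and 474.8 FPKM with Cre, against 473.6 and 478.0 FPKM with YFP, so that the totals overlapped while their makeup did not. The D type made up 76.0% and 75.7% of that sum with Cre and 66.9% and 66.6% with YFP. Ccnd1 alone made up 39.4% and 39.3% with Cre, and 29.9% and 30.4% with YFP.

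The D-type sum was 3.17 and 3.11 times the sum of the A, B and E types in the Cre libraries, and 2.02 and 1.99 times that sum in the YFP libraries. On the log2 scale the ratio was 0.65 higher with Cre. With Ccnd1 left out of the sum it was 0.46 higher.

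Per kinase transcript, the D-type sum was 1.63 and 1.69 times the sum of Cdk4 and Cdk6 with Cre, and 1.15 and 1.17 times with YFP. The ratio of Ccnd1 to Cdk4 alone was 0.853 and 0.885 with Cre, against 0.518 and 0.540 with YFP. In these libraries the cyclin D to kinase transcript ratio was thus higher with Cre in 2 of 2 libraries. The D-type sum averaged 358.0 FPKM with Cre and 317.5 FPKM with YFP. The kinase sum differed more, with 216.3 FPKM with Cre and 273.5 FPKM with YFP.

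**Figure D3:**
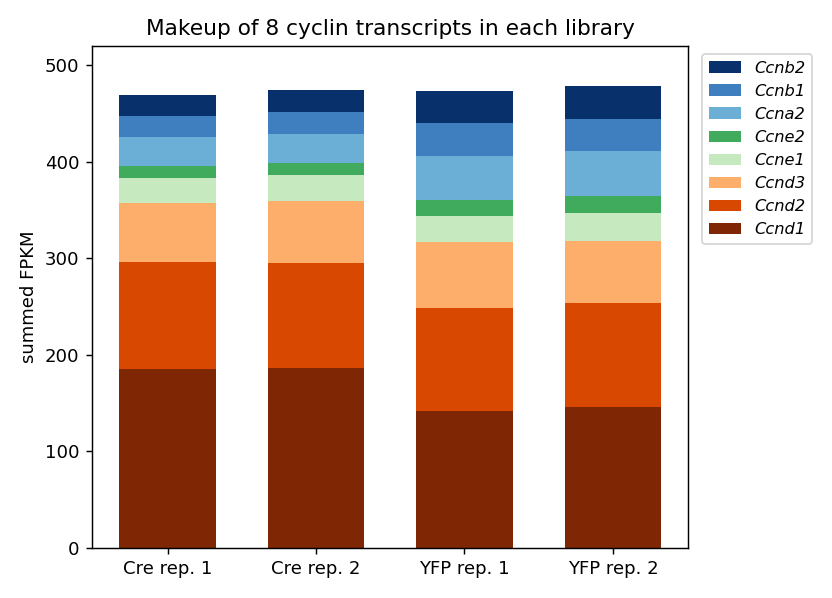
Summed FPKM of the 8 cyclin transcripts in each of the 2 Cre and 2 YFP libraries, stacked by gene, with D-type genes in orange and brown, E-type in green and A- and B-type in blue. The bars reach 469 to 478 FPKM in all 4 libraries, while the D-type part is 357 and 359 FPKM with Cre and 317 and 318 FPKM with YFP.

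The order of the levels differed between the groups at 1 place. In both groups it ran Cdk4, Ccnd1, Ccnd2, Ccnd3 and Ccna2 from the highest downward, with Ccne2 and Cdk6 the lowest. Between them, Ccne1 (25.8 and 26.6 FPKM) lay above Ccnb1 and Ccnb2 (21.5 to 23.2 FPKM) in the Cre libraries, and below them (27.4 and 28.6 against 33.1 to 34.6 FPKM) in the YFP libraries. Ccnb1 and Ccnb2 overlapped in level within each group and cannot be ordered.

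**Figure D4:**
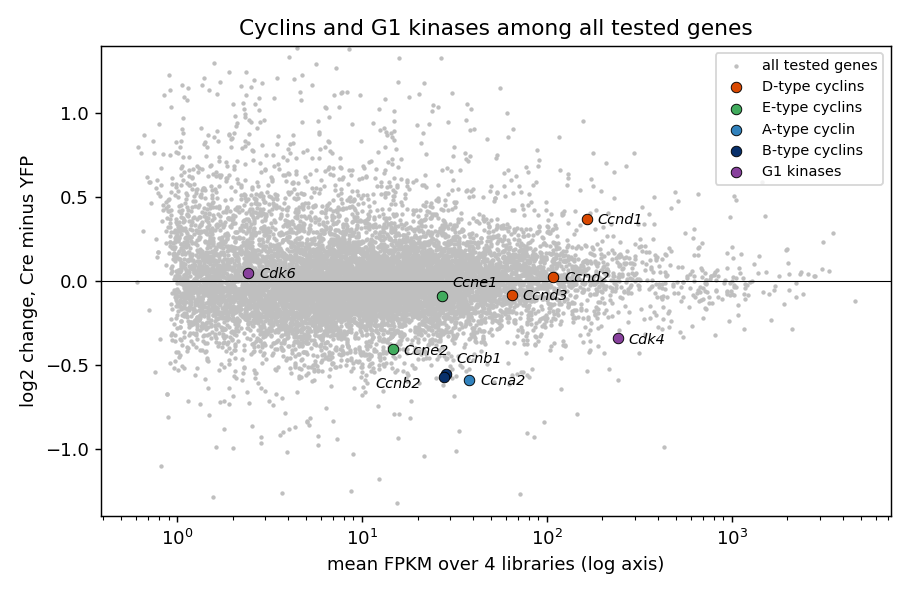
Log2 change (Cre minus YFP) against mean FPKM over the 4 libraries on a log axis, with all tested genes in grey and the 10 transcripts in colour. A total of 26 genes lie beyond the axis, which ends at 1.4 in either direction. Ccna2, Ccnb1 and Ccnb2 sit near the lower edge of the cloud, Ccnd1 near the upper edge for genes of its level, and Ccnd2, Ccnd3, Ccne1 and Cdk6 within it.

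The miRNAs of the floxed and the absent cluster bind 3′ UTRs through their seed, bases 2 to 8. Their sequences are shown because these are the miRNAs that the alleles concern. The RefSeq mature sequences, on GRCm38.p6 chromosome 14 for the miR-17 cluster and chromosome 5 for the miR-106b cluster, fall into 4 seed families, with the seed in capitals.
miR-17-5p: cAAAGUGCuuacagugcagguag
miR-20a-5p: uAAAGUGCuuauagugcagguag
miR-106b-5p: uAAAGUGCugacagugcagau
miR-93-5p: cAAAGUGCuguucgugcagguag
miR-18a-5p: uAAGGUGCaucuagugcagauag
miR-19a-3p: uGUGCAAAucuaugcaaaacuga
miR-19b-3p: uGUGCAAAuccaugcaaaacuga
miR-92a-3p: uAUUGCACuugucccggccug
miR-25-3p: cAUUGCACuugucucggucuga
The first 4 share a seed, as do the 2 miR-19 sequences and the pair of miR-92a and miR-25. Between these clusters, the miR-18 and miR-19 seeds occur in the floxed one, and the miR-17 and miR-92 seeds occur in both it and the one that both groups lacked. The related miR-106a-363 cluster on the X chromosome also encodes miRNAs with these seeds and is not among the alleles that the labels name.

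Sites complementary to these seeds were found in the longest GENCODE M21 3′ UTR (GRCm38) of 4 of 10 members, 7 sites in all, and 35.7% of 11539 tested genes with a 3′ UTR held at least 1. Ccnd1 and Ccnd2 carried the same pair, a miR-17 site followed further on by a miR-19 site. A miR-17 site was present in 15.3% and a miR-19 site in 14.3% of those genes. Each site is shown with 10 bases on either side and its 7 complementary letters in capitals.
Ccnd1 miR-17: ccatttcaaaGCACTTTtggtcagcta
Ccnd2 miR-17: cattagaaaaGCACTTTgaaaattttg
Ccnd1 miR-19: cagtaggtaaTTTGCACacctctggct
Ccnd2 miR-19: ttttttttttTTTGCACaattataatt
Ccna2 miR-19: tgccttctggTTTGCACtggtctgagc
Ccna2 miR-18: cactatagggGCACCTTtggaaaagtc
Ccne2 miR-92: ctcttgaatgGTGCAATttgtttttga
Only the miR-19 sites of Ccnd1 and Ccnd2 are followed by A, the longer form of site. Of the 4 genes with a site, Ccnd1 rose, Ccnd2 did not pass the test, and Ccna2 and Ccne2 fell. No site was found in the 3′ UTR of Ccnd3, Ccne1, Ccnb1, Ccnb2, Cdk4 or Cdk6, although that of Cdk6 is 10217 nt long, against a median of 1377 nt over tested genes. Only matches to all of bases 2 to 8 were searched, and shorter forms of site were not. No test of sites against direction was made on so few genes.

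The deletion itself could not be read from the table. None of the 9 miRNA genes of the clusters is listed, and 95% of the 2339 nt model of the host transcript Mir17hg lies downstream of the last of the cluster's 6 hairpins. Of these hairpins, 4 lie wholly upstream of the model. Mir17hg had 7.35 and 8.49 FPKM with Cre, against 3.29 and 3.91 FPKM with YFP, and rose, with a log2 change of 0.96 (adjusted p = 3.62e-05, limma). Mcm7, host of the miR-106b cluster, had 30.4 and 32.8 FPKM with Cre, against 36.8 and 34.8 FPKM with YFP, a fall of 0.18 (limma adjusted p = 0.0265) that was lost when YFP replicate 1 (adjusted p = 0.103), Cre replicate 1 (0.238) or Cre replicate 2 (0.056) was left out, and with no filter (0.0779).

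Other genes of the pathway, grouped by role, set the members in context. The count of each list is to be read against 32.9% of all tested genes called, 16.6% higher and 16.3% lower. Of 13 kinases, kinase partners and activators beside CDK4 and CDK6, 8 fell and 0 rose (median log2 change -0.22). Cdk1, the kinase of cyclins A and B, had 27.0 and 28.0 FPKM with Cre, against 37.5 and 34.2 FPKM with YFP, and fell by 0.37 (limma adjusted p = 0.000443). Cks1b, a small subunit that binds CDKs, fell by 0.31, the inhibitory kinase Pkmyt1 by 0.39 and the activating phosphatase Cdc25c by 0.33. Cdk2, the partner of cyclins E and A and chosen after its values were seen, had 13.3 and 13.8 FPKM with Cre, against 16.3 and 15.4 FPKM with YFP, and a fall of 0.21 (limma adjusted p = 0.0128) that was lost without Cre replicate 1 (adjusted p = 0.109), Cre replicate 2 (0.0669) or YFP replicate 1 (0.056).

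The inhibitors of these kinases moved both ways, with 2 of 8 higher and 5 lower (median log2 change -0.29). Cdkn1a, which encodes p21, had 566 and 597 FPKM with Cre, against 381 and 425 FPKM with YFP, and its ratio to the summed Cdk4 and Cdk6 transcripts was 2.58 and 2.80 with Cre, and 1.38 and 1.57 with YFP. Cdkn1c, which encodes p57, rose by a log2 change of 0.67 (adjusted p = 5.61e-05, limma), whereas Cdkn1b, which encodes p27, fell by 0.41 and Cdkn3, a CDK phosphatase gene, by 0.54 (limma adjusted p = 0.000228 and 0.000321).

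Downstream of cyclin D, 1 of 12 tested pocket protein and E2F genes fell and 0 rose (median log2 change -0.06). The gene that fell was Rbl1, which encodes p107 and had 6.43 and 5.71 FPKM with Cre, against 8.25 and 8.55 FPKM with YFP (log2 change -0.41, limma adjusted p = 0.00094). E2f1 had 14.9 and 15.7 FPKM with Cre, against 13.5 and 14.6 FPKM with YFP (log2 change 0.12, limma adjusted p = 0.142). Of the E- and A-type cyclins, Ccne2 and Ccna2 fell, while Ccne1 did not pass the test (log2 change -0.09, limma adjusted p = 0.182).

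Of 7 genes of the DREAM and B-MYB complexes, which repress and then activate genes of G2 and mitosis, 3 fell and 0 rose (median log2 change -0.17), and Foxm1 was the 1 of them called with either Cre library left out. Foxm1, an activator of mitotic genes that acts with B-MYB, had 9.13 and 9.09 FPKM with Cre, against 12.39 and 11.97 FPKM with YFP, and fell by 0.38 (limma adjusted p = 0.000418). Lin54, a DNA-binding subunit, was not called without Cre replicate 1 (adjusted p = 0.0705) or Cre replicate 2 (0.0693). Rbbp4, a histone-binding subunit, was not called without Cre replicate 1 (adjusted p = 0.172), Cre replicate 2 (0.146) or YFP replicate 1 (0.093), with no filter (0.0616), with the replicate block (0.054) or with the GC content and length trend removed (0.09). Of 14 genes that act in cyclin turnover, 5 fell and 2 rose (median log2 change -0.05). Ccnf, which fell, was not called without Cre replicate 1 (log2 change -0.29). Skp1a, Fzr1 and Usp2 were called with all libraries (limma adjusted p = 0.00719, 0.0369 and 0.0495) but were not followed through the alternatives. Skp2, a ubiquitin ligase subunit for p27, fell by 0.51 and Fbxo5, an inhibitor of the anaphase-promoting complex, by 0.45, while Cdc20, which directs that complex to cyclin B, fell by 0.35 (limma adjusted p = 6.77e-05, 0.000162 and 0.00367).

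Of 20 transcription factors reported at the Ccnd1 promoter, 6 rose and 2 fell (median log2 change 0.05). Junb, a subunit of AP-1, had 45.0 and 48.2 FPKM with Cre, against 35.3 and 37.0 FPKM with YFP, and rose by 0.36 (limma adjusted p = 0.000401). Lef1, a nuclear partner of β-catenin, had 1.63 and 1.62 FPKM with Cre, against 0.76 and 0.94 FPKM with YFP (log2 change 0.51, limma adjusted p = 0.0012), and its log2 change was 0.87 with a pseudocount of 0.1. Lef1, counted among the 6 that rose, reached 1 FPKM only in the Cre libraries, so the filter itself favoured a rise for it. The genes that fell were Ctnnb1, which encodes β-catenin itself, and Sp1 (log2 change -0.22 and -0.19, limma adjusted p = 0.00623 and 0.0361). The largest rise of the list was that of Fosl1, another AP-1 subunit (log2 change 0.96, limma adjusted p = 0.0124). Jun rose by 0.23 and Rela, a subunit of NF-κB, by 0.25, but neither passed with Cre replicate 2 left out (adjusted p = 0.0505 and 0.064). With the GC content and length trend removed, the log2 change of Junb was 0.23 and that of Rela 0.15, both still past the threshold (limma adjusted p = 0.00673 and 0.0192). Part of this list is induced by stress and inflammation, and no link to Ccnd1 was tested.

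All 13 proliferation markers fell, with a median log2 change of -0.33, and Mki67, a marker of cycling cells, had 16.0 and 15.3 FPKM with Cre, against 21.9 and 23.9 FPKM with YFP (log2 change -0.52, limma adjusted p = 7.53e-05). The ratio of Ccna2 to Mki67 was 1.87 and 1.99 with Cre and 2.09 and 1.93 with YFP and so overlapped. That of Ccna2 to Cdk1 was 1.11 and 1.09 with Cre and 1.22 and 1.35 with YFP, and did not overlap. In bulk RNA, fewer cycling cells and less of a transcript in each cycling cell cannot be told apart.

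**Figure D5:**
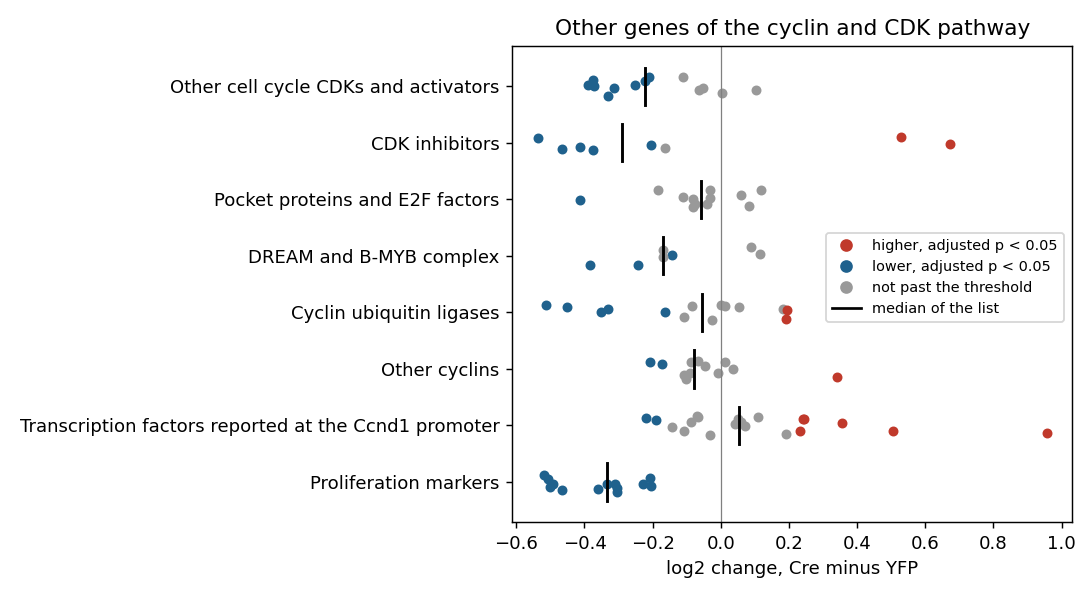
Log2 change (Cre minus YFP) of the tested genes of 8 lists, 1 point per gene, coloured by call, with a bar at the median of each list. All 13 proliferation markers are lower with Cre, CDK inhibitors lie on both sides, and pocket protein and E2F genes lie close to 0 except Rbl1.

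Summed FPKM was close between the groups, whereas the number of genes above 0 and the markers of some other cell types were not. FPKM summed to 461677 and 471021 in the Cre libraries and to 458756 and 462419 in the YFP libraries, and 17952 and 17891 genes were above 0 with Cre, against 17452 and 17445 with YFP. Marker counts, too, are to be read against the 16.6% of all tested genes called higher and the 16.3% called lower. Of 8 tested osteoblast markers, 1 rose (Spp1, log2 change 0.29, limma adjusted p = 0.00148) and 1 fell (Col1a2, log2 change -0.29, limma adjusted p = 0.00218). Col1a1 was at 1684 to 1778 FPKM, Runx2 at 10.3 to 12.1 FPKM, and the late markers Ibsp and Dmp1 under 1 FPKM. Bglap, which encodes osteocalcin, was at 1.27 and 0.91 FPKM with Cre, was listed at 0 in both YFP libraries, and was not tested. The related Bglap2 had 2.81 and 1.85 FPKM with Cre, against 1.54 and 0.53 FPKM with YFP, and was not called (limma adjusted p = 0.283). Macrophage and leukocyte markers moved with the contrast, 6 of 8 tested higher and 0 lower, with a summed level of 134 and 144 FPKM with Cre and 104 and 101 FPKM with YFP, and Ptprc, which defines leukocytes, at 0.27 to 0.37 FPKM. The 3 tested epithelial and mesothelial markers, Krt18, Krt8 and Msln, were higher too. Krt18 and Msln reached 1 FPKM only in the Cre libraries, so the filter itself favoured a rise for them. The list sum was 12.8 and 14.1 FPKM with Cre, against 2.56 and 2.82 FPKM with YFP. Krt18 gave 8.54 and 9.38 FPKM of the sum with Cre, and Krt14 and Upk3b were at or near 0. Of 8 tested fibroblast markers, 2 rose and 4 fell, of 6 chondrocyte markers 0 rose and 3 fell, and of 2 endothelial markers 0 passed. Col9a1 and Hapln1, among the chondrocyte markers that fell, reached 1 FPKM only in the YFP libraries, so the filter favoured a fall for them. The part of these cell types in the cyclin values was not tested.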

How the data were processed

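The authors deposited FPKM values (fragments scaled to transcript length and mapped total) to 2 decimals, in 1 column per library. Bowtie 02.2.5 and genome build mm8 appear as tool and build per the submitters' processing notes. Which program computed FPKM, on which annotation and whether by strand, is not given in the sources used here. Per the labels' protocols, mRNA was selected by its polyA tail and 1 ug of RNA went into single-end BGISEQ-500 libraries. With FPKM alone the depth of each library is unknown, and intervals that need it are left out. Among short RNA genes the most frequent ratio to YFP replicate 1 was 1.015 to 1.025, resting on 5 to 11 genes.

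Libraries were assigned through the number in the column name, which is the description of 1 sample. Genes that reached 1 FPKM in 2 or more libraries were fitted with limma 3.58.1 (R 4.3.3, trend and robust empirical Bayes) on log2(FPKM + 1), with the 2 Cre and 2 YFP libraries and no covariate. Log2 changes on this scale understate the change of low genes. The fit was also run on simulated data, whose outcome is not reported here. Whether the libraries of a group are separate cultures or mice is not stated, and p-values therefore speak of the spread among these libraries only, possibly a technical one.

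Members and gene lists were chosen with earlier results of these data known. The text names all members, up to 4 genes of each pathway list with the smallest p, the cluster host genes, and the 3 genes most like the member with the largest rise and the member with the largest fall. Cdk2, Fosl1, Ctnnb1, Sp1, Skp1a, Fzr1 and Usp2 were added after their values were seen. Of these, only Cdk2 was followed through the alternatives below. Transcript GC content and length came from GENCODE M21 by Entrez identifier (96.8% of tested genes). Coordinates are those of GRCm38.p6 and are not used with mm8. Protein identity was not computed. Alternatives tried were median-of-ratios scaling, rescaling to a common total, a pseudocount of 0.1, no filter, a mean FPKM of at least 5, the replicate block, removal of the GC content and length trend, and leaving out each library.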

Additional observations from a re-analysis of the deposited data

How the results depend on the processing

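The 6 member calls (1 higher and 5 lower) were made again in each of the other settings, with both scalings, the pseudocount of 0.1, no filter, a mean FPKM of at least 5, the replicate block and each library left out. With the GC content and length trend removed there were 8 calls, with Ccnd3 and Ccne1 added among the lower ones; the cause was not tested. Of 109 alternative values of the members, 106 kept direction and side of the threshold. Without YFP replicate 2 the log2 change of Cdk6, never past the threshold, was -0.017, and without another library it was 0.012 to 0.116. Cdk6 lies below the mean FPKM of 5 and has no value in that setting.

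The number of all genes called, 3961 with all libraries, was 1872 to 3560 with 1 library left out; it was lowest without Cre replicate 2 (1872) and without Cre replicate 1 (2384), of which 1829 and 2308 were among the 3961. The share of calls that were higher was 50.4%, and 46.6% to 57.7% in other settings. The D-type to A, B and E log2 ratio of 0.65 was 0.63 to 0.66 with 1 library left out, 0.56 as a mean of log2 values and 0.46 without Ccnd1; the weighting of genes differs by construction.

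With the replicate block, in which same-numbered libraries share a term, 3533 genes were called. Same-numbered libraries share only a number, and the correlation of their deviations from the group means was -0.031 across genes. The block changed no member call. With 2 libraries a group, the SDs rest on 2 values each, and depth could not be used to bound a difference.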

Other observations

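Of 12 tested cyclins outside the cell cycle core, 1 rose and 2 fell (median log2 change -0.08), a smaller share than the 32.9% called over all tested genes. Ccng1, a known p53 target, had 377 and 372 FPKM with Cre, against 289 and 302 FPKM with YFP, and rose by 0.34 on the log2 scale (limma adjusted p = 0.000318). It was thus more abundant than any D-type cyclin in these cultures. Ccni fell by 0.21 (limma adjusted p = 0.00719), which did not pass once Cre replicate 1 was left out (adjusted p = 0.103). The other, Ccnt2, a subunit of an elongation kinase, fell by 0.17 (limma adjusted p = 0.0311). It did not pass without Cre replicate 1 (0.0798), Cre replicate 2 (0.211) or YFP replicate 1 (0.0801), with the replicate block (0.0519), with no filter (0.062) or with the GC content and length trend removed (log2 change -0.07, adjusted p = 0.273). Ccna1, the germ line relative of Ccna2, was at 0.12 FPKM or less in every library, and Ccnb3 was at 0.01 FPKM or less.

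By distance between centred log2(FPKM + 1) values over the 4 libraries, the named genes closest to Ccnd1 were Ptpre (0.0078), Bcar1 (0.0246) and Ei24 (0.0252). Those closest to Ccna2 were Egfl6 (0.0322), Agtr2 (0.0328) and Rspo3 (0.0331). The log2 change was 0.37, 0.36 and 0.35 for the genes near Ccnd1 and -0.58, -0.56 and -0.60 for those near Ccna2. Ptpre lay at 2.26 FPKM or more with Cre and at 1.56 FPKM or less with YFP. Egfl6 had 1.47 FPKM in both Cre libraries, against 2.63 and 2.74 FPKM with YFP. Agtr2 reached 1 FPKM only in the YFP libraries, so the filter favoured a fall for it. The scale understates changes at such low levels, so the likeness of Ptpre, Egfl6 and Agtr2 holds on that scale only.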
